A study of Mus musculus with 4 samples.

Results

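Notch receptors, their ligands and 2 of their target genes were followed across 4 RNA libraries of sorted mouse liver cells. The genes were the 10 rows of the deposited count table whose Ensembl identifiers belong to Notch1, Notch2, Notch3, Notch4, Jag1, Jag2, Dll1, Dll4, Hes1 and Hey1, of 41128 gene identifiers in all. Every one of the 10 had at least 10 counts in 1 or more libraries, as had 21640 genes of the whole table.

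All libraries came from livers of C57BL/6 mice with experimental alcoholic hepatitis, and RNA of 2 mice was pooled in each, with 1 library per population. The mice ate a diet high in cholesterol and fat for 40% of their calories and received the other 60% as liquid diet with alcohol through a gastric tube, with an alcohol binge each week. Cells were taken after hepatocytes had been spun out at low speed and CD45+ leukocytes held back on magnetic beads. By flow cytometry Prom1+CD49f+CD45- cells, their Prom1-CD49f+CD45- counterparts and a population labelled Prom1+CD49f+CD45+ were sorted, and presorted CD45- cells formed the last library. Prom1 (prominin-1, CD133) marks bile duct epithelium and liver progenitor cells, CD49f is integrin alpha 6 and CD45 is the common leukocyte protein. Age, sex and a healthy control are not among the labels, so every value describes diseased livers.

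Notch signalling passes between touching cells. A ligand of the Jagged or Delta-like family on one cell binds a Notch receptor on the next, proteases then cut the receptor, and its freed intracellular domain joins the DNA-binding protein RBPJ in the nucleus to switch on genes such as Hes1 and Hey1. In liver, Jag1 and Notch2 are known for building the bile ducts, and people with a faulty copy of either gene have too few ducts (Alagille syndrome), while Dll4, Notch1 and Notch4 are known from blood vessels.

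Summed gene counts ranged from 14670414 in the Prom1-CD49f+CD45- library to 52294143 in the presorted library, and 15314 to 19280 genes had at least 10 counts. Levels are given as scaled CPM, which is gene counts set to a common library size with TMM factors (trimmed means of log ratios), each with an exact 95% Poisson interval. The sorted genes were checked first. Prom1 stood at 355 scaled CPM in Prom1+CD49f+CD45- cells, 31.1 in Prom1-CD49f+CD45- cells, 11.4 in the Prom1+CD49f+CD45+ library and 67.1 in presorted cells. Ptprc, the CD45 gene, stood at 6.33 in Prom1+CD49f+CD45- cells, 3.60 in Prom1-CD49f+CD45- cells, 14.5 in the Prom1+CD49f+CD45+ library and 21.0 in presorted cells. Itga6, the CD49f gene, stood at 72.9 in Prom1+CD49f+CD45- cells, 50.5 in Prom1-CD49f+CD45- cells, 127 in the Prom1+CD49f+CD45+ library and 110 in presorted cells. The CD45+ library was thus below the presorted cells in Prom1 and Ptprc and above them in Itga6, and therefore goes by the name of the library labelled as Prom1+CD49f+CD45+. Both CD45- gates, sorted as CD49f+, were below the presorted cells in Itga6. Each gate had 1 library, so no test could be made, no difference has a replicate check, and intervals cover counting error only, which amplification of reads can make too narrow.

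Cell type markers differed widely between the libraries and were summed by list. The summed level of 10 cholangiocyte markers was 23505 scaled CPM in Prom1+CD49f+CD45- cells, 9539 in Prom1-CD49f+CD45- cells, 414 in the library labelled as Prom1+CD49f+CD45+ and 3773 in presorted cells. Among the markers of endothelium in all vessels, 8 genes summed to 58.0 scaled CPM in Prom1+CD49f+CD45- cells, 2391 in Prom1-CD49f+CD45- cells, 7541 in the library labelled as Prom1+CD49f+CD45+ and 5662 in presorted cells. No marker of either list was at 0 in any library. The duct list was led by Spp1, which held 74.6% to 85.8% of its counts. In presorted cells 6 hepatocyte markers summed to 14289 scaled CPM, more than either list above. Their sum was 3788 in Prom1+CD49f+CD45- cells, where Alb gave 3241. It was 2650 in Prom1-CD49f+CD45- cells and 318 in the library labelled as Prom1+CD49f+CD45+. Kupffer cell and macrophage markers, also 6 genes, were highest in presorted cells, with a sum of 715. A bulk library cannot tell fewer cells of a type from less RNA per cell, and the part of cell makeup in the differences below was not tested.

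Promoter sequence is shown for Jag1, the ligand with the highest level in the Prom1+CD49f+CD45- library, and for Notch4 and Dll4, the genes with the largest differences between the gates. The letters are those of the 250 bases before the RefSeq transcription start in GRCm38.p6 that also lie before the gene as GENCODE vM21 annotates it, which left 126 bases for Jag1, 223 for Notch4 and 250 for Dll4, read 5′ to 3′ on the gene's strand. Capitals mark matches to a core motif of ETS factors (CAGGAAG) or of SOX factors (ACAATG), searched on both strands.
Jag1, chr2:137116645-137116770, minus strand: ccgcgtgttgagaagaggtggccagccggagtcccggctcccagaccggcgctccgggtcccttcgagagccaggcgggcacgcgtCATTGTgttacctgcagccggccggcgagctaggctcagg
Notch4, chr17:34564045-34564267, plus strand: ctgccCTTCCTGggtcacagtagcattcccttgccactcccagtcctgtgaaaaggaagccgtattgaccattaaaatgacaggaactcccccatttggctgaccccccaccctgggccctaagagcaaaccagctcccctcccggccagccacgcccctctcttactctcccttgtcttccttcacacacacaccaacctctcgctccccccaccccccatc
Dll4, chr2:119325534-119325783, plus strand: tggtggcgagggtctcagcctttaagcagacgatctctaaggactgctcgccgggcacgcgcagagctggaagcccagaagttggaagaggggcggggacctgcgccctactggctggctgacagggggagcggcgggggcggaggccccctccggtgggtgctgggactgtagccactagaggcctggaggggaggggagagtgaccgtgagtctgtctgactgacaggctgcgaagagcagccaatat
The whole window of 250 bases had a GC content of 57.2% for Jag1 and of 87.2% for Jag2, whose letters are not printed because all of them lie inside the annotated gene, against a median of 52.4% over 32851 promoters of the same length, so these Jagged genes differed in promoter base composition. The whole Notch4 window, at 58.4%, held 1 ETS and 1 SOX core, at bases 6 and 240 from the 5′ end, the SOX core beyond the letters shown, and Jag1 held 1 SOX core at base 87, all of them on the opposite strand. Dll4, at 65.6%, and Jag2 held no match. Among the windows of the remaining genes, the more upstream window of Dll1 held 2 SOX cores, at bases 33 and 82, also on the opposite strand. The other Dll1 window and those of Notch1, Notch2 and Notch3 held neither core. Of all promoters, 10.8% held the ETS core and 10.7% the SOX core. The RBPJ core TGGGAA, also searched on both strands and found in 21.6% of promoters, was in 0 of the 9 windows that matched 8 of the 10 genes. Such matches describe the letters and are not shown to be bound.

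The level of each gene in each library is plotted first.

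**Figure D1:**
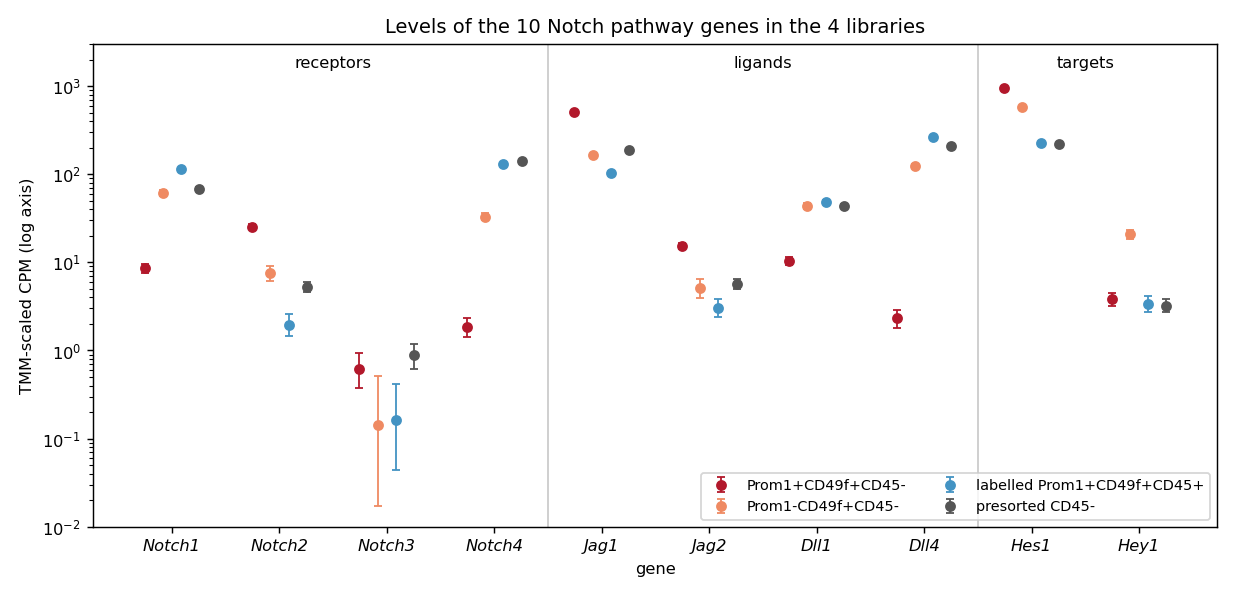
Level of the 10 genes in the 4 libraries, in TMM-scaled CPM on a log axis, with exact 95% Poisson intervals for counting error. Notch2, Jag1, Jag2 and Hes1 were highest in Prom1+CD49f+CD45- cells, at 25.4, 506, 15.3 and 949, and Notch1, Notch4, Dll1 and Dll4 were lowest there.

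Of the 40 values, 37 lay above the background, taken as the 95th percentile of 1509 chemosensory receptor genes, which have no known use in liver (0.817 scaled CPM in Prom1+CD49f+CD45- cells, 0.353 in Prom1-CD49f+CD45- cells, 1.07 in the library labelled as Prom1+CD49f+CD45+ and 0.0450 in presorted cells). The exceptions were all Notch3.

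Among the receptors, Notch2 was the one called higher with Prom1 between the CD45- gates, by the rule given below. Notch2 (ENSMUSG00000027878; chromosome 3, 98013527 to 98150361, plus strand, mm10) is the receptor through which duct cells are known to be specified in mice. It stood at 25.4 (23.8 to 27.2) scaled CPM in Prom1+CD49f+CD45- cells, 7.49 (6.13 to 9.06) in Prom1-CD49f+CD45- cells, 1.97 (1.46 to 2.61) in the library labelled as Prom1+CD49f+CD45+ and 5.20 (4.55 to 5.91) in presorted cells. The Prom1+CD49f+CD45- library was thus the highest and the library labelled as Prom1+CD49f+CD45+ the lowest, with no interval touching another. The ratio of scaled counts was 3.40 (2.77 to 4.20) against Prom1-CD49f+CD45- cells and 4.89 (4.23 to 5.68) against presorted cells. Intervals of ratios are exact conditional binomial ones, and a call of higher or lower needs the whole interval beyond 2-fold, as here in both cases.

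Notch1 (ENSMUSG00000026923; chromosome 2, 26457903 to 26516663, minus strand), a receptor used in many tissues, went the other way. Its levels were 8.52 (7.57 to 9.56) scaled CPM in Prom1+CD49f+CD45- cells, 61.3 (57.3 to 65.5) in Prom1-CD49f+CD45- cells, 114 (110 to 118) in the library labelled as Prom1+CD49f+CD45+ and 68.4 (66.0 to 70.8) in presorted cells. Prom1+CD49f+CD45- cells were lower by 7.20-fold (6.30 to 8.25) than Prom1-CD49f+CD45- cells and by 8.02-fold (7.11 to 9.08) than presorted cells. The Prom1-CD49f+CD45- and presorted libraries lay close, and their order held in 1 of 3 scalings. Notch1 overlaps the opposite-strand genes 0610009E02Rik and Gm13568, which had at most 323 counts in a library. Whether the authors counted by strand was not given in any source used here, and reads in the shared bases are uncertain.

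Notch4 (ENSMUSG00000015468; chromosome 17, 34564268 to 34588503, plus strand) is known mainly from endothelium. It was at 1.84 (1.41 to 2.35) scaled CPM in Prom1+CD49f+CD45- cells, 32.9 (30.0 to 36.1) in Prom1-CD49f+CD45- cells, 130 (125 to 134) in the library labelled as Prom1+CD49f+CD45+ and 142 (139 to 146) in presorted cells. The presorted library stood above the labelled one in 2 of 3 scalings. The fold differences of Notch4 were the widest of any receptor. Prom1+CD49f+CD45- cells were 17.9-fold lower (13.7 to 23.7) than Prom1-CD49f+CD45- cells, and 77.5-fold lower (60.5 to 101) than presorted cells. The level in Prom1+CD49f+CD45- cells was near the upper end of the chemosensory genes, whose 99th percentile there was 1.40. The part of that background in these folds was not tested. Notch4 was also the sole gene of the 10 called lower in Prom1-CD49f+CD45- cells against presorted ones, by 4.33-fold (3.94 to 4.76).

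Notch3 (ENSMUSG00000038146; chromosome 17, 32120820 to 32166852, minus strand) is the receptor of vascular smooth muscle and pericytes. It had 21 counts in Prom1+CD49f+CD45- cells, 2 in Prom1-CD49f+CD45- cells, 4 in the library labelled as Prom1+CD49f+CD45+ and 39 in presorted cells. The first 3 values, 0.613, 0.141 and 0.161 scaled CPM, lay under the chemosensory background, and the presorted value, 0.878 (0.624 to 1.20), above it. At this depth no difference of Notch3 was called, and the ratio of Prom1+CD49f+CD45- to Prom1-CD49f+CD45- cells, 4.34, had an interval of 1.06 to 38.2. The summed level of 6 smooth muscle and pericyte markers was 276 scaled CPM in Prom1+CD49f+CD45- cells, 143 in Prom1-CD49f+CD45- cells, 34.5 in the library labelled as Prom1+CD49f+CD45+ and 94.0 in presorted cells, with none at 0, and most of it was Rgs5, a pericyte gene, at 251 in Prom1+CD49f+CD45- cells and 64.9 in presorted cells. Against presorted cells 1 of these markers was called higher and 3 lower in Prom1+CD49f+CD45- cells, and their part in the Notch3 counts was not tested.

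The ligands split by family. Jag1 (ENSMUSG00000027276; chromosome 2, 137081456 to 137116644, minus strand), the ligand known for bile duct formation, had 506 (499 to 514) scaled CPM in Prom1+CD49f+CD45- cells, against 165 (158 to 171) in Prom1-CD49f+CD45- cells. The library labelled as Prom1+CD49f+CD45+ had 102 (98.2 to 106) and presorted cells 190 (186 to 194). Jag1 was called higher in Prom1+CD49f+CD45- cells, by 3.08-fold (2.95 to 3.22) over Prom1-CD49f+CD45- and by 2.66-fold (2.60 to 2.74) over presorted cells.

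Jag2 (ENSMUSG00000002799; chromosome 12, 112907819 to 112929776, minus strand), the second Jagged ligand, was far less abundant but had nearly the same profile. It stood at 15.3 (14.0 to 16.7) scaled CPM in Prom1+CD49f+CD45- cells, 5.09 (3.98 to 6.41) in Prom1-CD49f+CD45- cells, 3.02 (2.38 to 3.79) in the library labelled as Prom1+CD49f+CD45+ and 5.65 (4.97 to 6.39) in presorted cells. The ratios for Prom1+CD49f+CD45- cells were 3.01 (2.35 to 3.91) against Prom1-CD49f+CD45- and 2.71 (2.33 to 3.17) against presorted cells, close to those of Jag1. The Prom1-CD49f+CD45- and presorted libraries could not be ordered, since the interval of their ratio held 1. Ratios between the Prom1+CD49f+CD45- and Prom1-CD49f+CD45- libraries moved with transcript length over all genes (Spearman correlation 0.336 across 14583 genes, which are not replicates), and with that trend removed Jag2, at 2.37-fold, was no longer called while Jag1, at 2.35-fold, remained so.

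Dll4 (ENSMUSG00000027314; chromosome 2, 119325784 to 119335962, plus strand), the ligand of sprouting and arterial endothelium, showed the largest differences of the 10 genes in Prom1+CD49f+CD45- cells. Its levels were 2.31 (1.82 to 2.87) scaled CPM in Prom1+CD49f+CD45- cells, 123 (117 to 129) in Prom1-CD49f+CD45- cells, 263 (257 to 270) in the library labelled as Prom1+CD49f+CD45+ and 211 (207 to 216) in presorted cells. Prom1+CD49f+CD45- cells were 53.2-fold lower (42.5 to 67.5) than Prom1-CD49f+CD45- cells, 91.7-fold lower (73.5 to 116) than presorted cells and 114-fold lower (91.5 to 145) than the library labelled as Prom1+CD49f+CD45+. An opposite-strand gene, Gm14207, overlaps the start of Dll4 and had 5 to 314 counts. The Dll4 level in Prom1+CD49f+CD45- cells was near the upper end of the chemosensory genes, whose 99th percentile there was 1.40. The part of that background in the fold differences of Dll4 was not tested.

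Dll1 (ENSMUSG00000014773; chromosome 17, 15367354 to 15376872, minus strand), another Delta-like ligand, was lower in Prom1+CD49f+CD45- cells too, and near equal in the other libraries. It had 10.3 (9.23 to 11.4) scaled CPM in Prom1+CD49f+CD45- cells, 44.1 (40.7 to 47.7) in Prom1-CD49f+CD45- cells, 48.3 (45.6 to 51.2) in the library labelled as Prom1+CD49f+CD45+ and 43.8 (41.8 to 45.8) in presorted cells. The difference from Prom1-CD49f+CD45- cells was 4.29-fold (3.76 to 4.91), far below that of Dll4. The intervals of the ratios held 1 between Prom1-CD49f+CD45- cells and each neighbour in the order of levels.

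The targets Hes1 and Hey1 peaked in different gates. Hes1 (ENSMUSG00000022528; chromosome 16, 30064384 to 30067796, plus strand), a repressor that Notch is known to switch on in duct and many other cells, had 949 (938 to 959) scaled CPM in Prom1+CD49f+CD45- cells, against 581 (568 to 594) in Prom1-CD49f+CD45- cells. It had 224 (219 to 230) in the library labelled as Prom1+CD49f+CD45+ and 218 (213 to 222) in presorted cells, which could not be ordered. Against presorted cells Hes1 was called higher with Prom1 (4.36-fold, 4.26 to 4.46) and without it (2.67-fold, 2.59 to 2.75). Between the Prom1+CD49f+CD45- and Prom1-CD49f+CD45- gates the ratio was 1.63 (1.59 to 1.67), which was not called. Hes1 has a short transcript of 1468 bases, and with the length trend removed the ratio between the gates became 2.87, called higher, while that of Prom1-CD49f+CD45- over presorted cells became 1.57 and lost its call.

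Hey1 (ENSMUSG00000040289; chromosome 3, 8663359 to 8667256, minus strand), a repressor known as a Notch target in arterial endothelium, was highest in Prom1-CD49f+CD45- cells. The values were 3.79 (3.17 to 4.50) scaled CPM in Prom1+CD49f+CD45- cells, 20.8 (18.5 to 23.4) in Prom1-CD49f+CD45- cells, 3.38 (2.70 to 4.19) in the library labelled as Prom1+CD49f+CD45+ and 3.22 (2.71 to 3.79) in presorted cells. The other 3 libraries could not be ordered among themselves. Prom1+CD49f+CD45- cells had 5.49-fold less Hey1 (4.46 to 6.81) than Prom1-CD49f+CD45- cells, which were 6.48-fold higher (5.29 to 7.96) than presorted cells.

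Arterial and portal endothelial markers, taken as a sum, peaked in the same library as Hey1. Their summed level over 6 genes was 84.9 scaled CPM in Prom1+CD49f+CD45- cells, 2928 in Prom1-CD49f+CD45- cells, 2261 in the library labelled as Prom1+CD49f+CD45+ and 2006 in presorted cells, with none at 0, and 4 were called higher and 1 lower in Prom1-CD49f+CD45- cells than before sorting. Gja4 gave 1685 of the sum in Prom1-CD49f+CD45- cells. Gja4, Gja5, Sox17 and Vegfc were highest in that library. Efnb2 and Ltbp4 were highest in the library labelled as Prom1+CD49f+CD45+, at 159 and 1086, against 76.0 and 409 in Prom1-CD49f+CD45- cells. Gja5, the gene of the arterial gap junction protein connexin 40, was at 0.992 scaled CPM in Prom1+CD49f+CD45- cells, 212 in Prom1-CD49f+CD45- cells, 1.73 in the library labelled as Prom1+CD49f+CD45+ and 19.8 in presorted cells. Markers of portal fibroblasts and mesothelium also peaked there, with a sum over 6 genes of 37.1 scaled CPM in Prom1+CD49f+CD45- cells, 698 in Prom1-CD49f+CD45- cells, 10.3 in the library labelled as Prom1+CD49f+CD45+ and 139 in presorted cells. Of these, Thy1 was at 0 in Prom1+CD49f+CD45- cells and Wt1 at 0 in the library labelled as Prom1+CD49f+CD45+. The sum of lymphatic endothelial markers was highest in the same library too. Over 5 genes it was 373 scaled CPM in Prom1+CD49f+CD45- cells, 2793 in Prom1-CD49f+CD45- cells, 1465 in the library labelled as Prom1+CD49f+CD45+ and 1265 in presorted cells, with no gene at 0. Against presorted cells 3 of these genes were called higher and 1 lower in Prom1-CD49f+CD45- cells. Ccl21a, a chemokine gene of lymphatic vessels, made up most of the Prom1-CD49f+CD45- sum. It stood at 5.66 in Prom1+CD49f+CD45- cells, 2473 in Prom1-CD49f+CD45- cells, 6.89 in the library labelled as Prom1+CD49f+CD45+ and 21.4 in presorted cells. Mmrn1 was also highest in Prom1-CD49f+CD45- cells, and Pdpn lay close in both CD45- gates, at 6.42 with Prom1 and 6.92 without it. Prox1 was highest in Prom1+CD49f+CD45- cells, at 345 against 35.7 in Prom1-CD49f+CD45- cells. Flt4 was highest in the library labelled as Prom1+CD49f+CD45+, at 1447 against 138 in Prom1-CD49f+CD45- cells. The part of these cell types in the Hey1 difference was not tested.

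The ratios of all 10 genes are set side by side next. In Prom1+CD49f+CD45- against Prom1-CD49f+CD45- cells, 3 of 10 genes were called higher (Notch2, Jag1, Jag2), against 15.5% of all 21640 genes, and 5 of 10 lower (Notch1, Notch4, Dll1, Dll4, Hey1), against 12.7%. The split of all calls was 54.8% higher, against 45.5% with DESeq2 size factors and 66.9% with library totals, yet no call among the 10 genes changed with the scaling. The median log2 ratio of the 10 genes was -0.70, against 0.31 for all genes. Of the markers, 7 of 10 cholangiocyte genes were higher and 8 of 8 endothelial genes lower in this comparison. In Prom1+CD49f+CD45- against presorted cells, 4 were higher (Notch2, Jag1, Jag2, Hes1), against 27.6% of all genes, and 4 lower (Notch1, Notch4, Dll1, Dll4), against 15.6%. The share called higher was nearer to its background than the share called lower. The medians were -0.14 for the 10 genes and 0.18 for all.

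**Figure D2:**
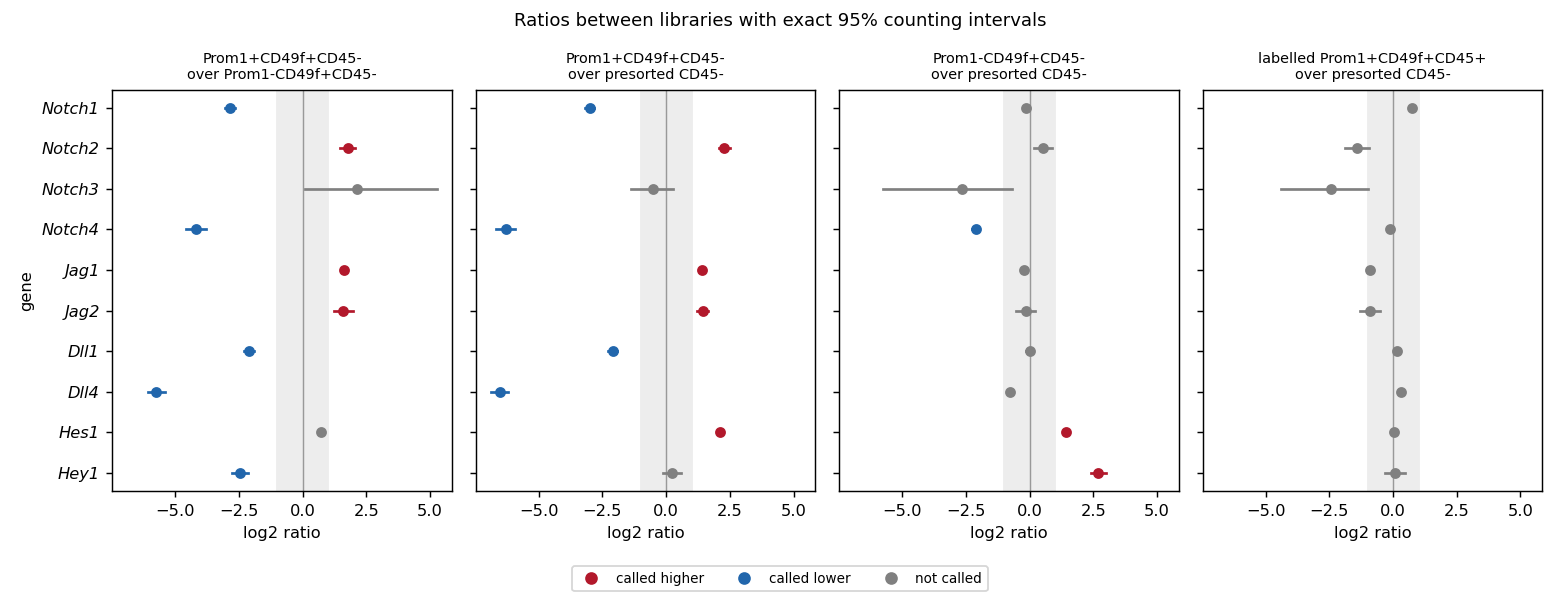
Log2 ratios of scaled counts for the 10 genes in 4 comparisons, with exact 95% counting intervals, and the range within 2-fold shaded. In both panels with Prom1+CD49f+CD45- on top, Notch1, Notch4, Dll1 and Dll4 lie left of the shaded range and Notch2, Jag1 and Jag2 right of it.

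In Prom1-CD49f+CD45- against presorted cells, 2 of 10 genes were called higher (Hes1, Hey1), against 9.78% of all genes, and 1 lower (Notch4), against 14.1%. Of all calls here 40.9% were higher, against 51.5% with DESeq2 size factors and 52.5% with library totals. The median log2 ratio was -0.15 for the 10 genes and 0.13 for all genes. Jag1, at a ratio of 0.866 (0.827 to 0.907), and Dll4, at 0.580 (0.551 to 0.611), were not called.

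In the library labelled as Prom1+CD49f+CD45+ against presorted cells, 0 of 10 genes were called, against 23.8% higher and 12.1% lower of all genes. Among genes with at least 50 counts in a library, which leaves out Notch3, 11.5% were higher and 16.0% lower. The median log2 ratio was -0.05 for the 10 genes and 0.10 for all. The nearest to a call were Notch3, at a ratio of 0.184 (0.0477 to 0.509), and Notch2, at 0.380 (0.273 to 0.519). With the length trend removed both were called lower, at 0.147 and 0.263. Notch1 had a ratio of 1.67 (1.59 to 1.76), called with library totals at 2.12. In the same comparison 10 of 10 cholangiocyte markers were lower and 0 of 8 endothelial markers were called.

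Set against the library labelled as Prom1+CD49f+CD45+, the Prom1+CD49f+CD45- cells gave 4 genes higher, against 12.5% of all genes, and 4 lower, against 13.1%. Notch2 was 12.9-fold higher (9.66 to 17.6), Jag1 4.96-fold (4.75 to 5.17), Jag2 5.07-fold (3.97 to 6.55) and Hes1 4.23-fold (4.11 to 4.35). Notch1 was 13.4-fold (11.9 to 15.2), Notch4 70.5-fold (54.9 to 91.9) and Dll1 4.71-fold (4.18 to 5.32) lower, beside Dll4 above. The median log2 ratio here was 1.05 for the 10 genes and -0.18 for all. Of 36 other genes of the pathway 3 were higher and 9 lower in this comparison, Neurl1a, Dtx1 and Dtx4 being the higher ones. These comparisons share libraries, so their calls are not independent of each other.

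The makeup of the receptor and ligand pools within a library does not depend on scaling between libraries. Notch2 made up 69.9% (exact binomial interval 67.2 to 72.4) of the counts of the 4 receptors in Prom1+CD49f+CD45- cells, against 7.35% in Prom1-CD49f+CD45- cells, 0.803% in the library labelled as Prom1+CD49f+CD45+ and 2.40% in presorted cells. Notch1 led in Prom1-CD49f+CD45- cells with 60.2% (57.6 to 62.7), and Notch4 led in the library labelled as Prom1+CD49f+CD45+ with 52.7% (51.4 to 53.9) and in presorted cells with 65.7% (64.7 to 66.6). The leading receptor therefore differed between the gates, and it was the same gene in each library when counts were divided by the length of the longest transcript. Divided by the mean length of the annotated transcripts instead, Notch1 led in Prom1+CD49f+CD45- cells with 50.5% of the receptor pool, against 37.0% for Notch2, while the leader of the other 3 libraries was the same gene.

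Jag1 held 94.8% (94.4 to 95.1) of the counts of the 4 ligands in Prom1+CD49f+CD45- cells and Dll4 0.431% (0.342 to 0.537). In Prom1-CD49f+CD45- cells Jag1 held 48.9% and Dll4 36.5% of the ligand counts, but per longest transcript Dll4 led with 43.4% and Jag1 followed with 38.9%. Dll4 led in the library labelled as Prom1+CD49f+CD45+ with 63.2% (62.2 to 64.1), where Jag1 held 24.5%, and in presorted cells with 46.9% (46.2 to 47.6), where Jag1 held 42.2%.

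**Figure D3:**
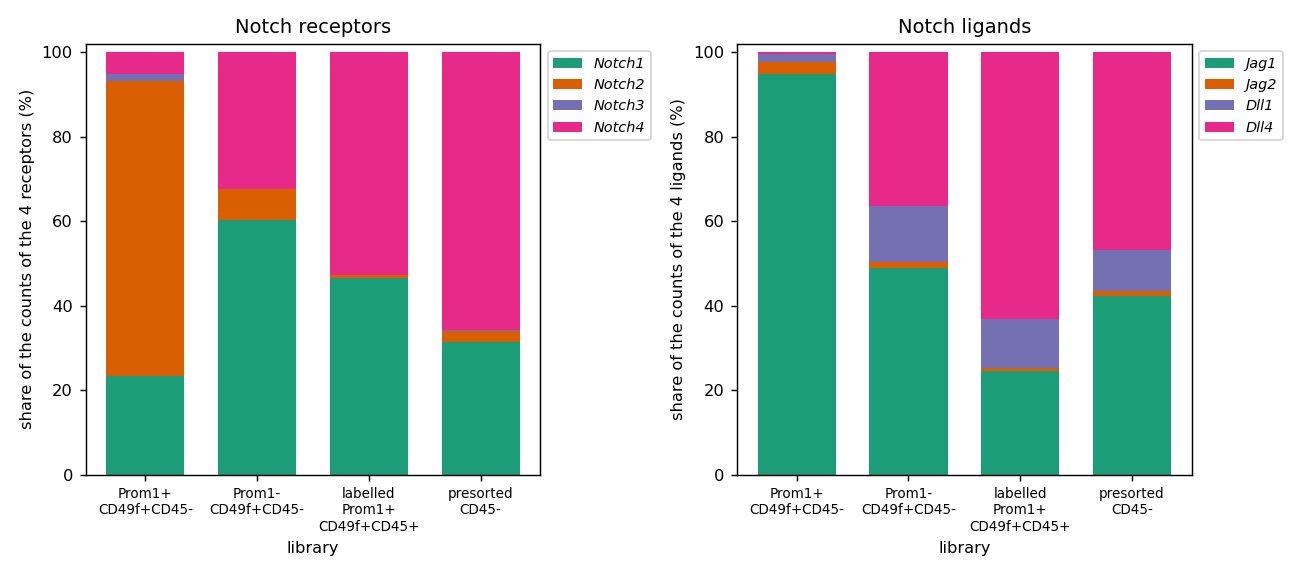
Share of each gene among the counts of the 4 Notch receptors (left) and the 4 Notch ligands (right) within each library, in percent. Prom1+CD49f+CD45- cells differ by their large Notch2 share of 69.9% and Jag1 share of 94.8%.

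Levels of different genes can be compared per kilobase of the longest transcript if reads cover whole transcripts. The labels name both a kit of that type and a method that counts 3′ ends, and which was used is not settled. Per kilobase Hes1 was the highest of the 10 genes in every library, at 646 scaled CPM per kilobase in Prom1+CD49f+CD45- cells, 396 in Prom1-CD49f+CD45- cells, 153 in the library labelled as Prom1+CD49f+CD45+ and 148 in presorted cells. Without division by length, Dll4, at 263 scaled CPM, exceeded Hes1, at 224, in the library labelled as Prom1+CD49f+CD45+. The 4 ligands together came to 96.7 scaled CPM per kilobase in Prom1+CD49f+CD45- cells, 75.4 in Prom1-CD49f+CD45- cells, 103 in the library labelled as Prom1+CD49f+CD45+ and 104 in presorted cells, a narrow range. The 4 receptors together came to 3.68 in Prom1+CD49f+CD45- cells, 12.2 in Prom1-CD49f+CD45- cells, 31.9 in the library labelled as Prom1+CD49f+CD45+ and 29.4 in presorted cells. The ligand sum was thus 26.3 times the receptor sum in Prom1+CD49f+CD45- cells, against 6.18 times in Prom1-CD49f+CD45- cells, 3.22 times in the library labelled as Prom1+CD49f+CD45+ and 3.52 times in presorted cells. With the mean annotated transcript length it was 15.0 times in Prom1+CD49f+CD45- cells, 2.28 in Prom1-CD49f+CD45- cells, 1.20 in the library labelled as Prom1+CD49f+CD45+ and 1.38 in presorted cells. Counts without division by length gave 14.7 in Prom1+CD49f+CD45- cells, 3.30 in Prom1-CD49f+CD45- cells, 1.70 in the library labelled as Prom1+CD49f+CD45+ and 2.08 in presorted cells. The size of the ratio therefore depends on the length used, and Prom1+CD49f+CD45- cells had the highest ratio in each of these 3 ways.

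Genes with the most similar profile were sought for each member among 12770 genes with at least 100 counts in a library, by the Euclidean distance of centred log2 levels over the 4 libraries. A distance over so few libraries is a description. Jag2 was the second nearest gene to Jag1 and Jag1 the second nearest to Jag2, at a distance of 0.109, and the next closest pair among the 10 genes, Notch2 with Jag1, was at 0.919. The nearest gene to Jag1 was Esyt3 (0.106) and to Jag2 Tdrkh (0.102). Nos3, the endothelial nitric oxide synthase gene, was nearest to Dll4 (0.111), followed by Calcrl, the receptor gene for adrenomedullin (0.181). C5ar2 and Arhgap31 were nearest to Notch4, both at 0.320, and Tcf4 (0.227) and Pcdhb14 (0.228) to Notch1. Neu2 (0.0723) and Paqr6 (0.0920) were nearest to Notch2, Rfk (0.0798) and Metrnl (0.123) to Dll1, and Syt7 (0.119) and Tubg2 (0.234) to Hes1. Hey1 had the tetraspanin genes Tspan6 (0.308) and Cd9 (0.325). Notch3 had too few counts for the search.

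The vessel genes were also set against the endothelial markers of their own library. This measure was chosen after values had been seen and serves as a description. In Prom1+CD49f+CD45- cells Dll4 and Notch4 were near the upper end of the chemosensory genes. Of the 8 endothelial markers, 7 lay above the 95th percentile of those genes there. Dll4 had 39.7 (31.3 to 49.7) counts per 1000 counts of the 8 endothelial markers in Prom1+CD49f+CD45- cells, 51.3 (48.9 to 53.8) in Prom1-CD49f+CD45- cells, 34.9 (34.1 to 35.8) in the library labelled as Prom1+CD49f+CD45+ and 37.3 (36.6 to 38.1) in presorted cells, while its level spanned more than 100-fold. Notch4 stayed between 13.8 and 31.7 on this scale. Notch1, in contrast, had 147 (129 to 166) in Prom1+CD49f+CD45- cells, against 25.7 in Prom1-CD49f+CD45- cells, 15.1 in the library labelled as Prom1+CD49f+CD45+ and 12.1 in presorted cells. Dll1 had 177 (158 to 198) in Prom1+CD49f+CD45- cells, against 18.4 in Prom1-CD49f+CD45- cells, 6.41 in the library labelled as Prom1+CD49f+CD45+ and 7.73 in presorted cells. The low Notch1 and Dll1 levels of Prom1+CD49f+CD45- cells were thus less low than those of these markers. Set against the 6 arterial and portal markers instead, Dll4 had 27.1 (21.4 to 33.9) per 1000 in Prom1+CD49f+CD45- cells, 41.9 in Prom1-CD49f+CD45- cells, 116 in the library labelled as Prom1+CD49f+CD45+ and 105 in presorted cells, so it was near constant on the list of all vessels and not on this one. Notch4 had 21.6 in Prom1+CD49f+CD45- cells, 11.2 in Prom1-CD49f+CD45- cells, 57.3 in the library labelled as Prom1+CD49f+CD45+ and 71.0 in presorted cells. Notch1 was again highest in Prom1+CD49f+CD45- cells, at 100 (88.6 to 113), against 20.9 in Prom1-CD49f+CD45- cells, 50.5 in the library labelled as Prom1+CD49f+CD45+ and 34.1 in presorted cells.

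**Figure D4:**
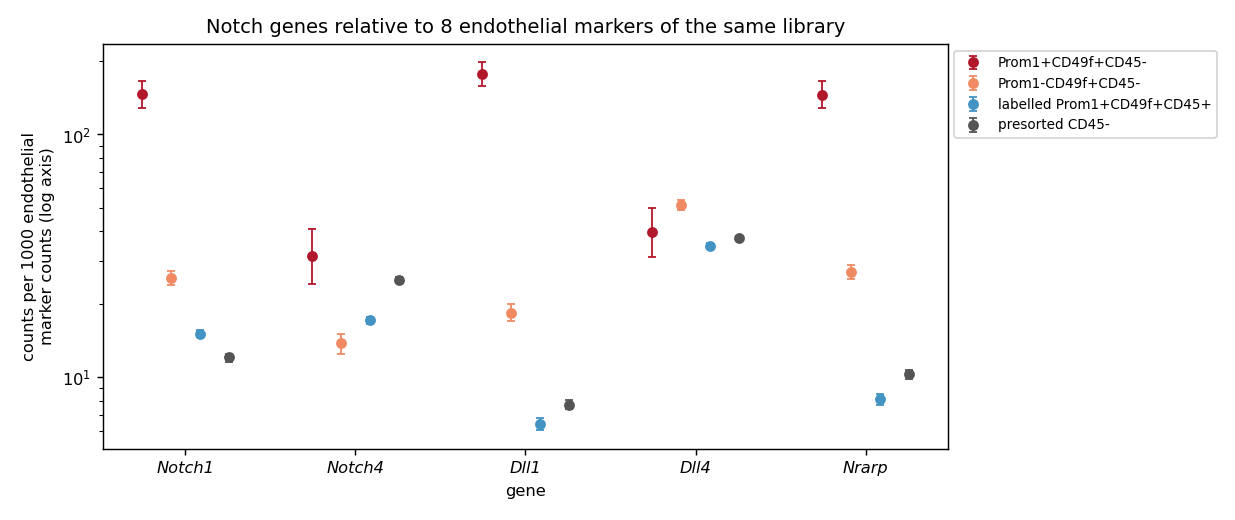
Counts of Notch1, Notch4, Dll1, Dll4 and the target Nrarp per 1000 counts of 8 endothelial markers in the same library, on a log axis with exact 95% counting intervals. On this list of all vessels Dll4 stays between 34.9 and 51.3 across the libraries, while Notch1, Dll1 and Nrarp reach 147, 177 and 146 in Prom1+CD49f+CD45- cells.

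The duct-side genes were set against 9 cholangiocyte markers, leaving out Spp1, in the same way. Notch2 had 6.66 (6.22 to 7.12) counts per 1000 marker counts in Prom1+CD49f+CD45- cells, 5.55 (4.54 to 6.71) in Prom1-CD49f+CD45- cells, 18.8 (13.9 to 25.0) in the library labelled as Prom1+CD49f+CD45+ and 7.76 (6.79 to 8.83) in presorted cells. Jag1 had 133 in Prom1+CD49f+CD45- cells, 122 in Prom1-CD49f+CD45- cells, 974 in the library labelled as Prom1+CD49f+CD45+ and 284 in presorted cells. Jag2 had 4.01 in Prom1+CD49f+CD45- cells, 3.77 in Prom1-CD49f+CD45- cells, 28.8 in the library labelled as Prom1+CD49f+CD45+ and 8.43 in presorted cells. For both Jagged genes the Prom1+CD49f+CD45- and Prom1-CD49f+CD45- libraries were close, and the other libraries had more Jagged counts per duct marker count. Those other libraries held more endothelial and less cholangiocyte marker RNA, and the part of either in this ratio was not tested. Hes1 had 248 (245 to 251) in Prom1+CD49f+CD45- and 430 (419 to 442) in Prom1-CD49f+CD45- cells, so on this scale the order of these gates was opposite to that of the Hes1 levels. These counts were not adjusted for transcript length. The length trend of Prom1+CD49f+CD45- over Prom1-CD49f+CD45- cells was -0.81 log2 at the length of Hes1, and its part in this order was not tested.

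The rest of the pathway was followed in 40 further genes, of which 36 could be compared. In Prom1+CD49f+CD45- against Prom1-CD49f+CD45- cells, 10 of 36 were called higher and 3 lower, against 15.5% and 12.7% of all genes, with a median log2 ratio of 0.35, close to the 0.31 of all genes. The ligases that prepare ligands for signalling were higher in 3 of 4 members, with Neurl1a at 3.66-fold (2.57 to 5.35) and Mib2 at 2.68-fold (2.38 to 3.02). Neurl1b, at 2.86-fold, was not called with DESeq2 size factors (2.54) or with the length trend removed (2.16). Of 6 genes of the nuclear complex and its corepressors 3 were called higher, among them Rbpj, the DNA-binding subunit, at 2.58-fold (2.25 to 2.97) and the coactivator gene Maml3 at 2.86-fold (2.35 to 3.50). With the length trend removed Rbpj (1.99) and Maml3 (2.14) were no longer called. Rbpj stood at 44.4 scaled CPM in Prom1+CD49f+CD45- cells, 17.2 in Prom1-CD49f+CD45- cells, 37.9 in the library labelled as Prom1+CD49f+CD45+ and 37.6 in presorted cells, so the Prom1-CD49f+CD45- library was the one that stood apart.

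The inhibitors and genes of receptor degradation were called higher in 3 of 8 members and lower in none, against 15.5% and 12.7% of all genes (by the interval rule, with 1 library per group). Numb, at a ratio of 0.493, was called lower with DESeq2 size factors (0.438), a 1.5-fold limit, the ratio alone and the length trend removed (0.465). Numb was also called lower with the authors' normalized values (0.446), where calls used the ratio alone. Dtx3, at 2.20, was called higher with library totals (2.59), a 1.5-fold limit, the ratio alone and the length trend removed (3.21). Dtx4, a Deltex gene whose protein acts on Notch receptors, was at 75.6 (72.7 to 78.6) scaled CPM in Prom1+CD49f+CD45- cells, 8.62 (7.16 to 10.3) in Prom1-CD49f+CD45- cells, 6.40 (5.45 to 7.48) in the library labelled as Prom1+CD49f+CD45+ and 29.7 (28.1 to 31.3) in presorted cells. It was 8.77-fold higher (7.31 to 10.6) in Prom1+CD49f+CD45- than in Prom1-CD49f+CD45- cells. Dtx1, another Deltex gene, was 3.03-fold higher (2.51 to 3.69), at 26.3 scaled CPM in Prom1+CD49f+CD45- cells, 8.69 in Prom1-CD49f+CD45- cells, 0.806 in the library labelled as Prom1+CD49f+CD45+ and 4.70 in presorted cells. Per 1000 counts of the 9 duct markers Dtx1 hardly varied, with 6.90 (6.45 to 7.36) in Prom1+CD49f+CD45- cells, 6.44 (5.35 to 7.69) in Prom1-CD49f+CD45- cells, 7.68 (4.69 to 11.9) in the library labelled as Prom1+CD49f+CD45+ and 7.02 (6.10 to 8.04) in presorted cells, whereas Dtx4 ranged from 6.39 to 61.1. Itch, a ligase that marks Notch for degradation, was 2.97-fold higher (2.70 to 3.27).

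Called lower in Prom1+CD49f+CD45- than in Prom1-CD49f+CD45- cells were Mfng, Psen2 and Nrarp. Mfng, a fringe enzyme that modifies the receptors' sugars, stood at 0.438 (0.245 to 0.722) scaled CPM in Prom1+CD49f+CD45- cells, below the chemosensory background, against 27.1 (24.4 to 29.9) in Prom1-CD49f+CD45- cells, a 61.8-fold difference (37.0 to 112). Psen2, a catalytic subunit of the protease gamma-secretase, was 4.84-fold lower (4.54 to 5.16). Nrarp, a Notch target that feeds back on the pathway, was 7.65-fold lower (6.70 to 8.76), with 8.49 scaled CPM in Prom1+CD49f+CD45- cells and 65.0 in Prom1-CD49f+CD45- cells, against 61.3 in the library labelled as Prom1+CD49f+CD45+ and 58.1 in presorted cells. Among targets, Hes1 was highest in the library where Nrarp was lowest.

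**Figure D5:**
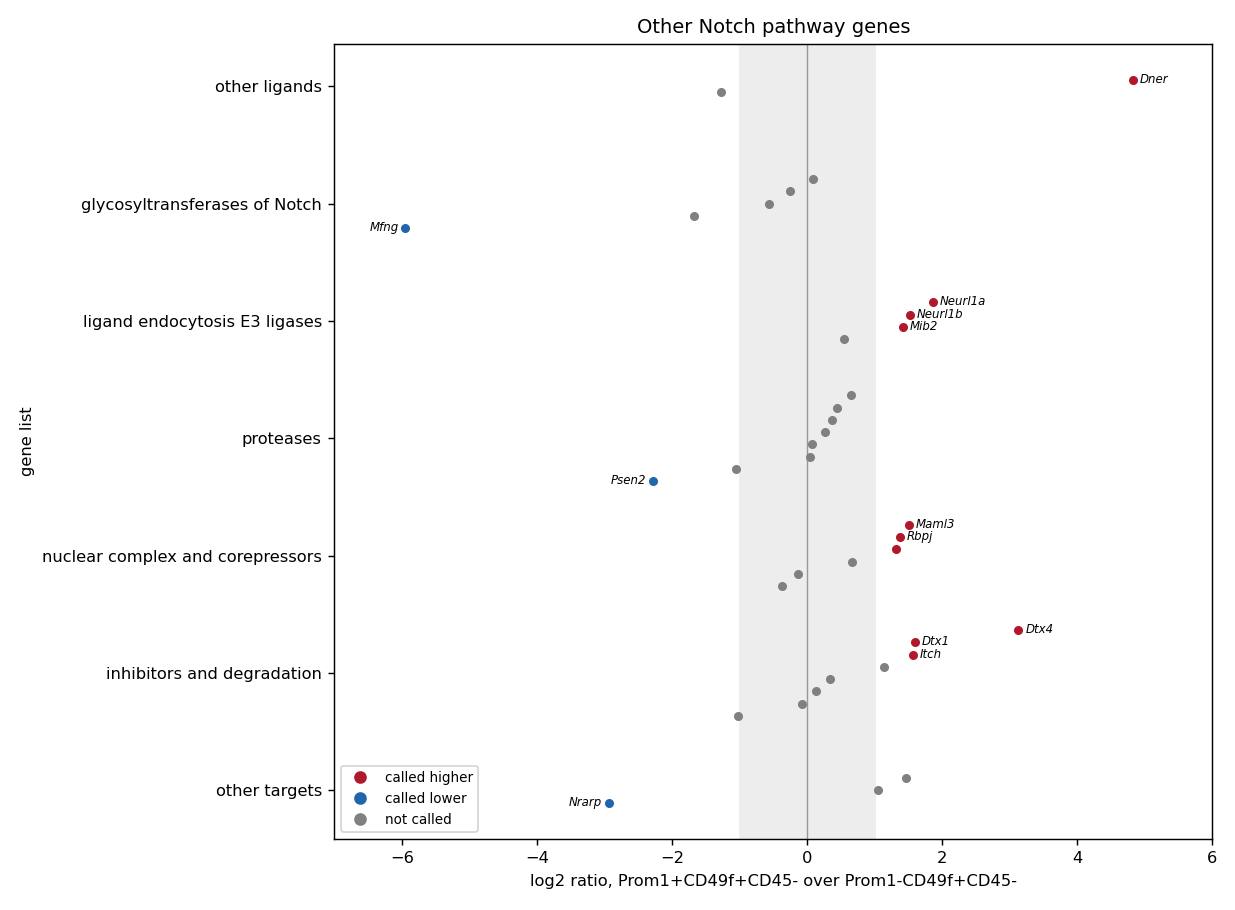
Log2 ratio of Prom1+CD49f+CD45- over Prom1-CD49f+CD45- for 36 other Notch pathway genes grouped by role, with the called genes of highest level or most extreme interval in each list named and the range within 2-fold shaded. Of the 13 called genes, 10 lie to the right and Mfng, Psen2 and Nrarp to the left.

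Against presorted cells, Prom1+CD49f+CD45- cells had 6 of the 36 genes higher and 7 lower, against 27.6% and 15.6% of all genes. Dtx1, at 5.60-fold (4.81 to 6.54), and Neurl1a, at 3.09-fold (2.51 to 3.82), were among the higher, and Lfng, a second fringe gene, was 13.4-fold lower (9.32 to 19.9). Numb, which encodes an antagonist of Notch receptors, was 4.97-fold lower (4.73 to 5.23), at 52.1 scaled CPM in Prom1+CD49f+CD45- cells and 259 in presorted cells. In Prom1-CD49f+CD45- against presorted cells 0 of 36 were called higher and 10 lower, against 9.78% and 14.1% of all genes, and the number lower became 4 with the length trend removed, while the authors' normalized values gave 2 higher and 4 lower. The genes called lower in Prom1+CD49f+CD45- cells than before sorting were 3 of 5 glycosyltransferase genes, 2 of 8 protease genes, Numb among 8 inhibitors and the target Nrarp.

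In the library labelled as Prom1+CD49f+CD45+ against presorted cells 1 of the 36 genes was higher and 4 were lower, against 23.8% and 12.1% of all genes. Neurl1a (14.5-fold, 6.07 to 45.5), Dtx1 (5.84-fold, 3.68 to 9.75) and Dtx4 (4.63-fold, 3.93 to 5.50), all high in Prom1+CD49f+CD45- cells, were lower there, as was the target gene Heyl (4.86-fold, 2.94 to 8.57). The gene called higher was Dner, a Notch ligand gene known from neurons, with 69 counts in Prom1+CD49f+CD45- cells, 1 in Prom1-CD49f+CD45- cells, 77 in the library labelled as Prom1+CD49f+CD45+ and 1 in presorted cells. Its ratio to presorted cells was 138 (24.0 to 5514) in the labelled library and 89.5 (15.5 to 3585) in Prom1+CD49f+CD45- cells, with intervals that a presorted count of 1 leaves wide. At 2.01 and 3.10 scaled CPM its levels were near the upper end of the chemosensory genes, whose 99th percentiles were 1.40 in Prom1+CD49f+CD45- cells and 2.09 in the library labelled as Prom1+CD49f+CD45+. The same libraries had counts for 69.4% and 69.6% of chemosensory genes, against 12.7% in presorted cells, and the part of that background in the Dner ratios was not tested.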

How the data were processed

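Gene-level estimated counts were deposited by the authors, 50.5% to 60.5% of them whole in a library, together with normalized values, treated here as a score. From the deposited values, the second table held counts times 1 constant per library plus 1. TopHat2, Partek 3 and the mm10 build are named per the submitters' processing notes; their settings, the annotation release and the handling of strand were not given in any source used here. Libraries were polyA-selected and made with a stranded kit, per the labels' protocols, while Quant-seq, which tags 3' ends, stands in the series title. Amplification took 12 to 14 cycles for low and 6 to 10 for higher input, and which library had which is not stated. Columns of sorted cells carried the population numbers of the design text, and the remaining column, named CD45, was taken as the presorted CD45- cells.

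Estimated counts were rounded to whole numbers. Of 41128 identifiers 40254 matched a symbol in GENCODE vM21, whose positions and longest transcripts were used. TMM factors (1.13 in Prom1+CD49f+CD45- cells, 0.965 in Prom1-CD49f+CD45- cells, 1.08 in the library labelled as Prom1+CD49f+CD45+ and 0.850 in presorted cells) came from edgeR 4.0.16 in R 4.3.3 over genes reaching 10 counts in any library. Exact intervals at the 95% level were computed with scipy 1.17.1 and the length trend with statsmodels 0.14.6. The call rule was run on simulated counts that held counting error only. Such counts cannot check effects of replicates, amplification or transcript length. Log2 levels for distances used a pseudocount of 0.5, and 0 counts a floor of 3.

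No test, p-value or SD was computed, since each group had 1 library. Alternatives were DESeq2 1.42.0 size factors, library totals, the authors' normalized values, filters of none or at least 50 counts, a 1.5-fold limit, the ratio alone, removal of the length trend and a 99th percentile for the background. Ratios of the authors' normalized values kept the added 1, and their calls used the ratio alone beyond 2-fold, without an interval. The 10 genes and all lists were chosen with earlier results of these data known. Named were the 10 genes, from each pathway list up to 3 genes of highest mean level and those with the most extreme intervals in each direction, the 2 nearest profiles per gene, and markers set beside a gene. Named outside this rule, after values were seen, were Alb, Rgs5, Ccl21a, Mmrn1, Pdpn, Prox1, Flt4, Gja4, Sox17, Vegfc, Efnb2 and Ltbp4.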

Additional observations from a re-analysis of the deposited data

How the results depend on the processing

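No paired analysis was possible because each group had 1 library and no replicate number. Under the alternatives, the counts of genes called in Prom1+CD49f+CD45- cells against any other library stayed within 1.5 times of those reported. In Prom1-CD49f+CD45- against presorted cells, the 2 genes called higher became 1 with the length trend removed (Hes1 lost its call), and the 1 called lower became 3 at a 1.5-fold limit and 2 on the ratio alone. In the library labelled as Prom1+CD49f+CD45+ against presorted cells, the 0 called higher became 1 with library totals, with the authors' normalized values and at a 1.5-fold limit (Notch1 each time). The 0 called lower there became 1 with DESeq2 size factors (Notch3), 3 at a 1.5-fold limit, and 2 both on the ratio alone and with the length trend removed (Notch2 and Notch3). The same library stayed highest for 9 of 10 genes with DESeq2 size factors (Dll1 moved to Prom1-CD49f+CD45- cells) and with library totals (Notch4 moved to the library labelled as Prom1+CD49f+CD45+), and Hes1 was the highest of the 10 genes per length in 4 of 4 libraries with mean transcript lengths, but in 3 of 4 without division by length. The member leading its family by share of counts also led by share per length in 7 of 8 cases, and in 6 of 8 with mean transcript lengths (Notch1 in place of Notch2 in Prom1+CD49f+CD45- cells, and Dll4 in place of Jag1 in Prom1-CD49f+CD45- cells). With the 99th percentile as background, 36 in place of 37 levels lay above it. Of 425 ratios of the 10 genes under alternatives, 332 stayed within the counting interval of the reported value, 93 lay outside it and 0 of the called ones changed sign. The count filters, the 1.5-fold limit and the ratio alone cannot move a ratio. A part of the 332 was therefore fixed in advance, and their share does not measure how firm the ratios are. TMM without the library labelled as Prom1+CD49f+CD45+, an alternative chosen after seeing the data, changed none of the calls among the 10 genes in the 3 comparisons it could be run on, and the alternatives for other pathway genes, the mean length for shares and sums, and sums without length were added in the same way. Other pathway genes called lower in Prom1+CD49f+CD45- against Prom1-CD49f+CD45- cells numbered 6 in place of 3 with DESeq2 size factors and with the authors' values. Over all genes, those called higher against presorted cells fell to 3094 from 5963 in Prom1+CD49f+CD45-, to 1391 from 2116 in Prom1-CD49f+CD45- and to 1788 from 5154 in the library labelled as Prom1+CD49f+CD45+ with at least 50 counts, a filter all members but Notch3 pass. With the authors' values they numbered 3230 in Prom1+CD49f+CD45- cells and 3000 in the library labelled as Prom1+CD49f+CD45+. At a 1.5-fold limit and on the ratio alone, 5504 and 7831 genes were higher in place of 3348 in Prom1+CD49f+CD45- against Prom1-CD49f+CD45- cells. In Prom1-CD49f+CD45- against presorted cells, these settings gave 3617 and 5215 higher in place of 2116, and 4786 and 5151 lower in place of 3054. On the ratio alone 4945 in place of 2830 were lower in Prom1+CD49f+CD45- cells than in the library labelled as Prom1+CD49f+CD45+. The causes of these changes were not tested. Depth limits Notch3 most, with 2 to 39 counts.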
